A study of Mus musculus with 6 samples.

Results

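The voltage-gated sodium channel genes were followed in RNAseq data from the hippocampi of wild-type mice and of mice that overexpress the calcium channel ORAI1 in neurons. The set was given by gene symbol and holds 8 of the 54838 genes in the table of counts. The 5 alpha subunit genes are Scn1a, Scn2a, Scn3a, Scn8a and Scn9a, and the 3 beta subunit genes are Scn2b, Scn3b and Scn4b. RNA came from 3 wild-type and 3 FVB/NJ-Tg(Orai1)Ibd females aged 7 months, with 1 library per mouse, and all 6 libraries were used. The transgene is a human ORAI1 coding sequence in a Thy-1.2 expression cassette, a promoter that is used to drive expression in neurons, and the labels of the control mice give wild-type as the genotype and no strain. No other treatment is named in the labels of either group. The mice were told apart by the numbers in their labels, and these numbers are names only.

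A voltage-gated sodium channel opens when the membrane depolarises and carries the inward current that starts and spreads the action potential. One alpha subunit forms the pore, the voltage sensors and the gate that closes it within milliseconds, and beta subunits attach to it, tune its gating and act as adhesion molecules. In the hippocampus Scn1a is best known from inhibitory interneurons, Scn2a and Scn8a from the axons of excitatory neurons, Scn3a from the immature brain and Scn9a from sensory neurons outside the brain. Variants of several of these genes are known causes of epilepsy.

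The 5 alpha genes are close relatives, and 4 of them lie in one cluster on chromosome 2. Over whole transcripts, 2.65% of the 65-base words of Scn1a, 3.92% of those of Scn2a, 4.79% of those of Scn3a and 3.33% of those of Scn9a also occurred in another gene, and 65 bases was the shortest read kept by the authors. Scn8a, Scn3b and Scn4b shared no such word with another gene, and Scn2b shared 0.064% of its words. The counts of the 4 chromosome 2 genes are uncertain to the extent that reads in the shared stretches could be assigned to the wrong copy.

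The libraries held 37414241 to 52497799 counted fragments. The 3 deepest were wild-type mouse 1 with 52497799, transgenic mouse 1 with 47027279 and wild-type mouse 2 with 42154842. Orai1 stood at 7.16 to 8.08 CPM (counts relative to the scaled library total) in wild-type mice and at 313 to 331 CPM in transgenic mice, and Thy1 at 621 to 675 and 3572 to 4369 CPM, so that no library went against its label. The comparison of genotypes used the quasi-likelihood test of edgeR over the 19087 genes that passed the filter on low counts, with Benjamini-Hochberg adjustment. The median log2 fold change of all genes tested was -0.010, and all 8 sodium channel genes passed the filter. Libraries stood apart in markers of neighbouring tissue. In all 3 transgenic mice the choroid plexus genes were low: 21 of 22 choroid plexus genes passed the test as lower, with sums of 4097 to 6276 CPM against 675 to 951 CPM. Genes of the striatum were high in wild-type mouse 2 and are given with Scn4b. The part of the choroid plexus RNA in the sodium channel values was not tested.

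Of the 8 sodium channel genes, 2 passed the test, Scn1a and Scn2a, and both were lower in Tg(ORAI1)Ibd mice. Of all genes tested 7.10% passed in either direction, 764 of them as lower and 591 as higher. All 8 had a fold change below 0, of which Scn8a turned above 0 with offsets for gene length and Scn3b when certain mice were left out, and the median log2 fold change was -0.35. In 4 of the 8 genes, Scn1a, Scn2a, Scn3a and Scn2b, every transgenic mouse lay below every wild-type mouse, where 34.9% of all genes tested had groups that did not overlap in either direction and 17.9% had them with transgenic mice lower. In a bulk tissue, fewer cells that express a gene and less of its RNA per cell cannot be told apart.

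**Figure D1:**
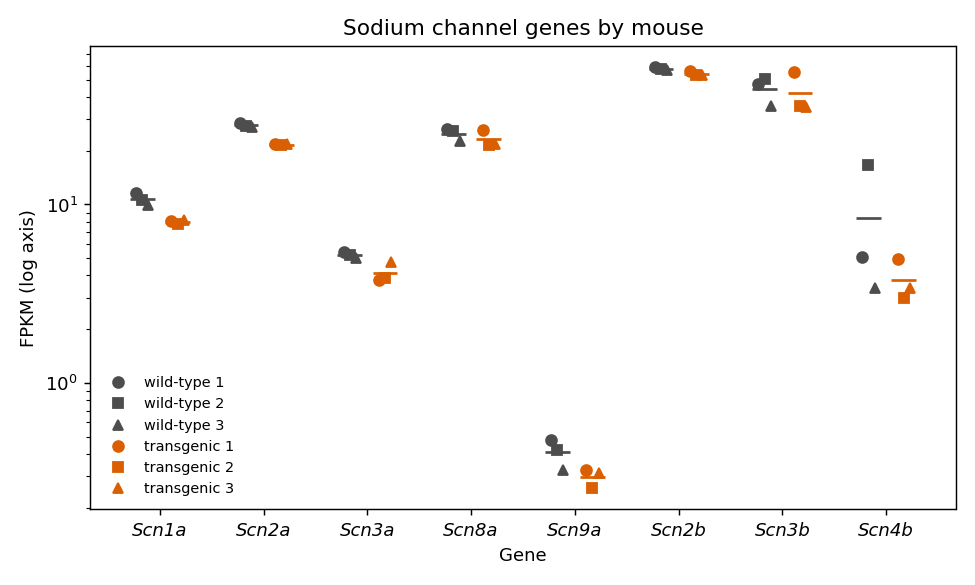
FPKM (counted fragments relative to exonic length and library total, log axis) of the 8 sodium channel genes in each of the 3 wild-type (grey) and 3 transgenic (orange) mice, with bars at the group means. Scn1a and Scn2a are lower in all 3 transgenic mice, and wild-type mouse 2 stands at 16.6 FPKM for Scn4b while the other 5 mice lie between 2.98 and 5.07.

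Scn2a, the pore subunit of the axons of excitatory neurons (ENSMUSG00000075318, chr2:65620771-65767447, plus strand), had the smallest adjusted p of the set. Its level was 368, 352 and 344 CPM in wild-type mice 1, 2 and 3 and 278, 273 and 276 CPM in transgenic mice 1, 2 and 3. The transgenic mice lay within a few CPM of each other and well below the lowest wild-type mouse. The mean fell by 22.2%, from 354 ± 12.2 to 276 ± 2.63 CPM (SD, n = 3 mice each), a log2 fold change of -0.36 with a standard error of 0.044 and an adjusted p of 0.0104 by edgeR's quasi-likelihood test.

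Scn1a, the pore subunit best known from fast-spiking interneurons (ENSMUSG00000064329, chr2:66270778-66440840, minus strand), was at 129.9, 117 and 109.8 CPM in wild-type mice 1, 2 and 3. In transgenic mice 1, 2 and 3 it was at 91.1, 86.1 and 91.4 CPM. Again the groups did not overlap, and the spread was wider among the wild-type than among the transgenic mice. The mean fell by 24.8%, from 119 ± 10.1 to 89.5 ± 2.94 CPM (SD, n = 3), a log2 fold change of -0.41 with a standard error of 0.067 and an adjusted p of 0.0222 in the same edgeR test. Of 10 inhibitory neuron genes, 1 passed the test, Gad2, the enzyme that makes GABA at synapses, with 155 to 196 CPM against 115 to 131 CPM in the transgenic group and an adjusted p of 0.0272 by edgeR. Gad2 did not pass with GC offsets (adjusted p = 0.0819) or without wild-type mouse 2 (adjusted p = 0.12). No gene of the inhibitory neuron list passed without wild-type mouse 1, transgenic mouse 2 or transgenic mouse 3 either. That list summed to 992 to 1160.3 CPM in wild-type libraries and to 900.3 to 1073 CPM in transgenic libraries. In it 6 genes had a fold change below 0 and 4 above 0. Among the 4 were the fast-spiking cell genes Pvalb at 0.09 and Kcnc1 at 0.12, neither of which passed. Among the 6 were Kcnc2 at -0.09, Gad1 at -0.27 and Slc32a1 at -0.27, as fitted with the replicate number as a block, and none of these passed. At an unadjusted p under 0.05 edgeR's test called 3 of the 10, against 27.8% of all genes tested. The median log2 fold change of the list was -0.05, and its part in the Scn1a value was not tested.

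The calls of Scn1a and Scn2a depended on the mice and on the treatment of base composition, and so did the number of calls over all genes. It was 1355 with all mice. It was 77 without wild-type mouse 1, 94 without wild-type mouse 2, 192 without transgenic mouse 2 and 108 without transgenic mouse 3. With 1 mouse left out, neither gene passed without wild-type mouse 1, wild-type mouse 2, transgenic mouse 2 or transgenic mouse 3, with adjusted p of 0.0765 to 0.106 for Scn1a and 0.0579 to 0.0858 for Scn2a by edgeR, while the log2 fold changes over all 6 such fits ran from -0.46 to -0.33 and from -0.38 to -0.32. The transcripts of Scn1a, Scn2a, Scn3a and Scn9a had a GC content of 43.3%, 43.4%, 42.1% and 42.4%, against a median of 49.5% over all genes tested. With the GC trend of each library passed to the model as offsets, none of the 8 genes passed, where 2.16% of all genes tested did. At an unadjusted p under 0.05, edgeR's test called 3 of the 8 with the offsets, against 21.4% of all genes tested, and 4 without them, against 27.8%. Scn1a then had a log2 fold change of -0.29 (adjusted p = 0.0867 by edgeR) and Scn2a one of -0.24 (adjusted p = 0.0675), and the median of the 8 genes was -0.22. With offsets for GC content and length together the values were -0.23 and -0.17.

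**Figure D2:**
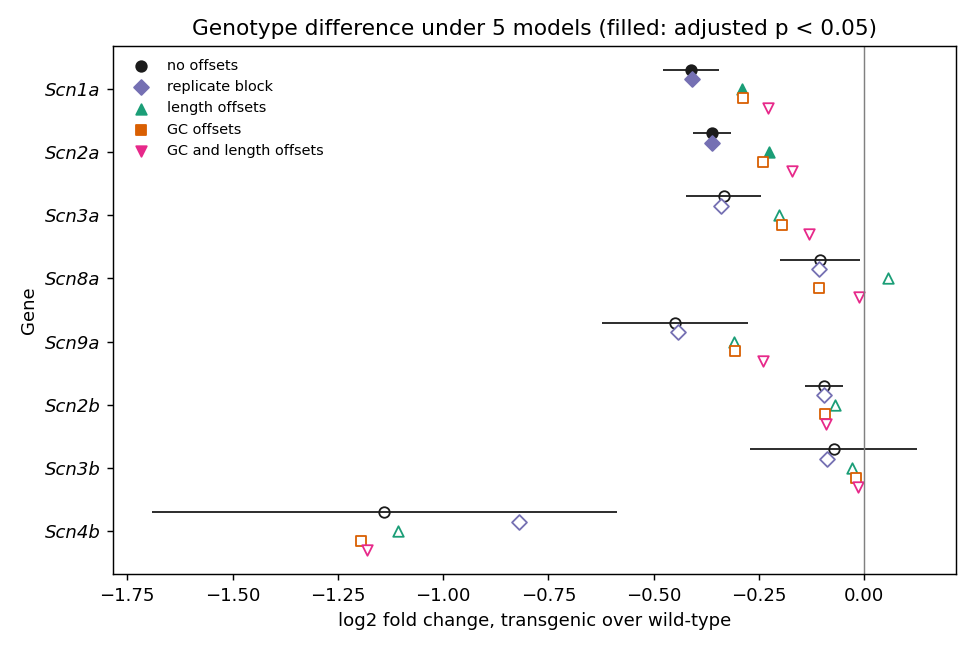
Log2 fold change of each sodium channel gene, transgenic over wild-type, in 5 edgeR models, with 1 standard error as a line for the model without offsets and filled symbols where the adjusted p was under 0.05. The 4 genes on chromosome 2 and low in GC move towards 0 with GC offsets, and Scn4b has the widest error.

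Scn3a, a pore subunit that is most abundant before birth (ENSMUSG00000057182, chr2:65457118-65567627, minus strand), was measured at 67.9, 64.8 and 61.9 CPM in wild-type mice 1, 2 and 3 and at 47.5, 48.1 and 58.9 CPM in transgenic mice 1, 2 and 3. Transgenic mouse 3 came close to the lowest wild-type mouse, and the other transgenic mice stood further off. The log2 fold change was -0.33 with a standard error of 0.088, and the adjusted p of 0.0616 by edgeR's test missed the threshold. By DESeq2's Wald test Scn3a passed, with an adjusted p of 0.0111, and with GC offsets the log2 fold change was -0.20 (adjusted p = 0.197 by edgeR).

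Scn9a, the pore subunit of sensory neurons (ENSMUSG00000075316, chr2:66480080-66634962, minus strand), was the least abundant of the set. It received 321, 227 and 156 counts in wild-type mice 1, 2 and 3 and 196, 125 and 149 in transgenic mice 1, 2 and 3, which gave 6.13, 5.38 and 4.12 CPM and 4.20, 3.28 and 3.98 CPM. Transgenic mouse 1 lay above wild-type mouse 3, so the groups overlapped. The means were 5.21 ± 1.02 and 3.82 ± 0.483 CPM (SD, n = 3), and the log2 fold change of -0.45, with a standard error of 0.17, had an adjusted p of 0.143 by edgeR. It was -0.30 without wild-type mouse 1 and -0.24 with offsets for GC content and length. An antisense gene, Gm13629, overlaps exons of Scn9a on the other strand, and the counting kept the strand. Its log2 fold change was -0.29 with an adjusted p of 0.232.

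Scn8a, the main pore subunit of the mature axon initial segment and the nodes of Ranvier (ENSMUSG00000023033, chr15:100869858-101045938, plus strand), is the alpha gene of the set that lies outside chromosome 2. It stood at 421, 406 and 354 CPM in wild-type mice 1, 2 and 3 and at 414, 340.4 and 344 CPM in transgenic mice 1, 2 and 3. The groups overlapped, and the 3 highest values belonged to the 3 deepest libraries, of which 2 were wild-type and 1 transgenic. The log2 fold change was -0.11 with a standard error of 0.095 and an adjusted p of 0.516 by edgeR's test, and it was 0.055 where offsets for gene length were used.

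Scn2b, a beta subunit that is linked to the alpha subunit by a disulphide bond (ENSMUSG00000070304, chr9:45117782-45130070, plus strand), varied little. It was at 275, 266 and 265 CPM in wild-type mice 1, 2 and 3 and at 262, 246 and 247 CPM in transgenic mice 1, 2 and 3. The groups did not overlap, but the gap between them was smaller than the spread within either. The log2 fold change was -0.10 with a standard error of 0.046 and an adjusted p of 0.222 by edgeR.

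Scn3b, a beta subunit that binds without such a bond (ENSMUSG00000049281, chr9:40269217-40291618, plus strand), split the mice within both genotypes. Its level was 258, 275 and 193 CPM in wild-type mice 1, 2 and 3 and 303, 195 and 193 CPM in transgenic mice 1, 2 and 3. As for Scn8a, the 3 high values were those of the 3 deepest libraries, and the part of depth in this was not tested. Between genotypes the log2 fold change was -0.07 with a standard error of 0.20 and an adjusted p of 0.849 by edgeR, and its sign changed when wild-type mouse 2, transgenic mouse 2 or transgenic mouse 3 was left out.

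Scn4b, a beta subunit that is abundant in neurons of the striatum (ENSMUSG00000046480, chr9:45138395-45154152, plus strand), had the largest log2 fold change of the set and no call. It was at 25.4, 82.8 and 16.8 CPM in wild-type mice 1, 2 and 3 and at 24.8, 14.8 and 16.9 CPM in transgenic mice 1, 2 and 3. Wild-type mouse 2 stood 3.27 times above the next highest mouse, and the other 5 mice overlapped. The log2 fold change was -1.14 with a standard error of 0.55 and an adjusted p of 0.226 by edgeR with all mice, and it was -0.14 with an adjusted p of 0.797 without wild-type mouse 2.

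The same mouse was highest for 7 of 8 genes of a striatal list. Adora2a, the adenosine receptor of striatal projection neurons, was at 15.5 CPM there and at 1.48 to 1.84 CPM in the other mice. Drd2, a dopamine receptor of the same neurons, was at 14.6 CPM against 2.64 to 4.06 CPM. Rgs9, a regulator of dopamine signalling, was at 42.1 CPM against 8.13 to 9.08 CPM. Drd1, another dopamine receptor, was at 17.0 CPM both in wild-type mouse 2 and in the next highest mouse, and Penk, which encodes enkephalin, was not highest in wild-type mouse 2. The median log2 fold change of the list was -0.91 with all mice and 0.09 without wild-type mouse 2, and no gene of the list passed edgeR's or DESeq2's test with all mice, where 1 had an unadjusted p under 0.05. The part of striatal RNA in the Scn4b value was not tested.

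**Figure D3:**
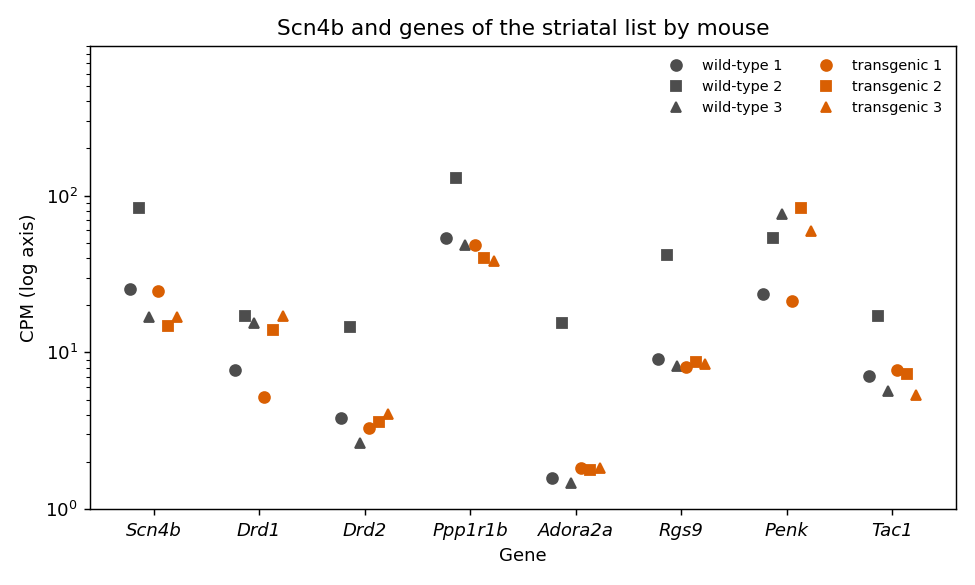
CPM (log axis) of Scn4b and of genes of the striatal list in each of the 3 wild-type (grey) and 3 transgenic (orange) mice. The square of wild-type mouse 2 lies above the other mice for Scn4b at 82.8 CPM, for Adora2a at 15.5 CPM and for Rgs9 at 42.1 CPM, but not for Penk.

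Levels of different genes were compared per length, as FPKM, the counts relative to exonic length and library total. In wild-type hippocampus Scn2b was at 57.7 ± 1.05 FPKM (SD, n = 3), Scn3b at 44.3 ± 7.79, Scn2a at 27.9 ± 0.859, Scn8a at 25.0 ± 2.14, Scn1a at 10.7 ± 0.873, Scn4b at 8.37 ± 7.21, Scn3a at 5.21 ± 0.224 and Scn9a at 0.408 ± 0.0783 FPKM. The beta genes Scn2b and Scn3b thus led the set. Of the 7 neighbouring pairs in this order, Scn1a with Scn4b and Scn4b with Scn3a had ranges over the 3 mice that overlapped, and the others did not. With the length of the longest transcript in place of the exonic length, Scn3b at 58.3 FPKM came before Scn2b at 57.7. In transgenic hippocampus Scn8a, at 23.2 ± 2.49 FPKM, came before Scn2a, at 21.6 ± 0.123 FPKM, though their ranges overlapped, and Scn3a at 4.13 ± 0.527 came before Scn4b at 3.77 ± 1.03 FPKM. Without wild-type mouse 2 that order also held in the wild-type mice, at 5.21 FPKM for Scn3a and 4.23 FPKM for Scn4b. In the transgenic mice the ranges of Scn2b and Scn3b and those of Scn3a and Scn4b overlapped too.

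Shares within a library do not depend on how libraries are scaled, but they do carry the GC trend, since the GC content of Scn8a was 50.8% and that of the other alpha genes 42.1% to 43.4%. The log2 fold change of Scn2a minus that of Scn8a was -0.26 without offsets and -0.13 with GC offsets. Scn2a made up 39.5%, 39.7% and 41.8% of the summed FPKM of the 5 alpha genes in wild-type mice 1, 2 and 3 and 36.2%, 39.1% and 38.2% in transgenic mice 1, 2 and 3. Scn8a made up 36.5%, 37.0% and 34.8% in wild-type mice and 43.4%, 39.3% and 38.4% in transgenic mice. Scn2a held the largest share in every wild-type mouse and Scn8a in every transgenic mouse. With the length of the longest transcript, Scn2a also led in transgenic mice 2 and 3, at 40.2% and 39.4% against 39.2% and 38.3% for Scn8a, so the order within transgenic mice depended on the length used.

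The share of Scn8a was 4.30 percentage points higher in transgenic mice, 2.78 points higher without transgenic mouse 1, and did not overlap between genotypes, and that of Scn2a was lower by 2.50 points, from 40.3% to 37.8%, again without overlap. Scn1a went from 15.4% ± 0.421 to 14.0% ± 0.463 (SD, n = 3). For each of these 3 genes the exact two-sided permutation test gave p = 0.1, which is the smallest that 3 mice against 3 allow, so the design could not reach 0.05. The shares of Scn3a, 7.54% and 7.23%, and of Scn9a, 0.587% and 0.520%, overlapped between genotypes (exact permutation p = 0.7 and 0.3). The p were not adjusted over the 5 genes, since none could pass. The shares of a mouse add up to the whole, so the differences of the 5 genes are tied to each other. The level of Scn8a itself was 25.0 FPKM in wild-type and 23.2 FPKM in transgenic mice.

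**Figure D4:**
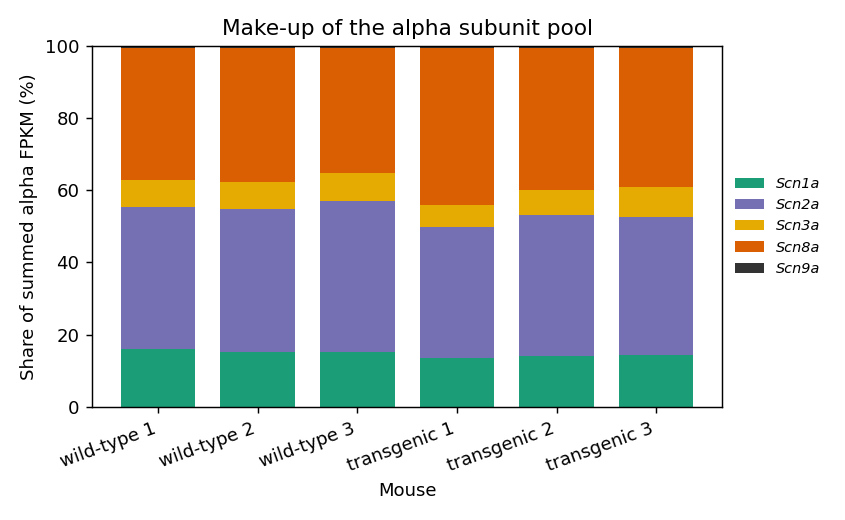
Share of each alpha subunit gene in the summed FPKM of the 5 alpha genes (%), stacked for each of the 6 mice. Scn8a takes 34.8% to 37.0% in wild-type and 38.4% to 43.4% in transgenic mice, and Scn9a is too small to see.

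The sodium channel genes were also set against genes that neurons express in general. None of the 10 pan-neuronal genes passed edgeR's test, and DESeq2 called 1 as lower. At an unadjusted p under 0.05 edgeR's test called 1 of them, against 27.8% of all genes tested, and 3 with GC offsets, against 21.4%. With GC offsets the median log2 fold change of the 10 was -0.02, that of Scn1a -0.29 and that of Scn2a -0.24. The ratios below were made without offsets. The 10 pan-neuronal genes summed to 8360 to 8761 CPM in wild-type libraries and to 8368 to 8451 CPM in transgenic libraries. Relative to the mean log2 CPM of these genes, Scn1a was lower by 0.40 on the log2 scale in transgenic mice, from -2.34 ± 0.11 to -2.74 ± 0.04 (SD, n = 3), and Scn2a went from -0.77 ± 0.04 to -1.12 ± 0.03. Scn3a differed by -0.33, Scn9a by -0.42 and Scn2b by -0.09, and in these 5 genes the genotypes did not overlap, as in 33.0% of all genes tested on this scale, with an exact two-sided permutation p = 0.1, the smallest possible. For Scn9a the lowest wild-type and the highest transgenic mouse were both at -7.18, with almost no gap between them. Scn8a differed by -0.10 (exact permutation p = 0.2), Scn3b by -0.08 (exact permutation p = 1.0) and Scn4b by -0.83 (exact permutation p = 0.4), and these overlapped.

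Of the 7 other sodium channel genes that were listed, 4 passed the filter on low counts. Nalcn, the sodium leak channel that sets resting excitability, was at 139, 135 and 130.2 CPM in wild-type mice 1, 2 and 3 and at 109.9, 114 and 116 CPM in transgenic mice 1, 2 and 3. It passed the test as lower, with a log2 fold change of -0.25 and an adjusted p of 0.0279 by edgeR, and the groups did not overlap. Nalcn did not pass with GC offsets, at -0.15 (adjusted p = 0.110), with length offsets, at -0.10 (adjusted p = 0.192), with the replicate number as a block (adjusted p = 0.0541) or without wild-type mouse 2 (adjusted p = 0.130). Without wild-type mouse 1, transgenic mouse 2 or transgenic mouse 3 none of these 4 genes passed either. Scn7a, which senses sodium rather than voltage, had 169 to 320 counts and a log2 fold change of -0.27 with an adjusted p of 0.486. Scn4a of skeletal muscle and Scn10a and Scn11a of sensory neurons had 0 to 12 counts in any library and were not tested.

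Of 25 genes whose proteins anchor, bind or act with the channels, 4 passed the test, 2 as higher and 2 as lower, and 16 had a fold change below 0, with a median log2 fold change of -0.04. Of all genes tested 7.10% passed in either direction. At an unadjusted p under 0.05 edgeR's test called 15 of the 25, against 27.8% of all genes tested. With GC offsets it called 4 of them, against 21.4%. DESeq2 called 3 of the 25 as higher and 6 as lower, and 2230 of all 19087 genes tested. Kcna1, the axonal potassium channel subunit Kv1.1, was at 88.0, 83.0 and 82.6 CPM in wild-type mice 1, 2 and 3 and at 62.9, 55.5 and 68.6 CPM in transgenic mice 1, 2 and 3. Its log2 fold change was -0.44, with an adjusted p of 0.0271 by edgeR. Cntn1, the adhesion molecule contactin, went from between 420.5 and 463 CPM to between 331 and 365 CPM, a log2 fold change of -0.33 with an adjusted p of 0.0279. Both were lower in every transgenic mouse.

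Dpysl2, which encodes the collapsin response mediator CRMP2, rose from between 138 and 156 CPM in wild-type mice to between 171 and 191 CPM in the transgenic group, with a log2 fold change of 0.32 and an adjusted p of 0.0341 by edgeR. Every transgenic mouse lay above every wild-type mouse. With GC offsets 1 gene of the 25 passed as higher, Dpysl2, and 1 as lower, Kcna1, while Cntn1 was at -0.22 (adjusted p = 0.0673 by edgeR). With the replicate number as a block Dpysl2 had an adjusted p of 0.0556. None of the 25 passed without wild-type mouse 1, wild-type mouse 2, transgenic mouse 2 or transgenic mouse 3. In these fits 77, 94, 192 and 108 of all genes passed.

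The 4 chromosome 2 members share a stretch of the genome with other genes, which were taken from 500000 bp before Scn3a to 500000 bp after Scn7a (chr2:64957118-67284914). Of 30 genes there 12 were tested, the 4 members among them. Of these 12, 11 had a fold change below 0 and 3 passed, where 7.10% of all genes tested passed. The third, beside Scn1a and Scn2a, was Csrnp3, a nuclear protein gene between them, at 106, 96.2 and 92.4 CPM in wild-type mice 1, 2 and 3 and at 79.8, 73.8 and 76.7 CPM in transgenic mice 1, 2 and 3. Its log2 fold change was -0.36 with an adjusted p of 0.0266 by edgeR, and -0.21 with an adjusted p of 0.183 with GC offsets. Of the 8 tested genes that are not in the set, 1 passed and 7 had a fold change below 0, at a median log2 fold change of -0.27. With GC offsets 6 had one below 0, at a median of -0.09. Galnt3, which starts sugar chains on secreted proteins, stood at 5.13 to 5.43 CPM in the wild-type group and 6.19 to 6.88 CPM in the transgenic group, at a log2 fold change of 0.29 with an adjusted p of 0.0994.

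**Figure D5:**
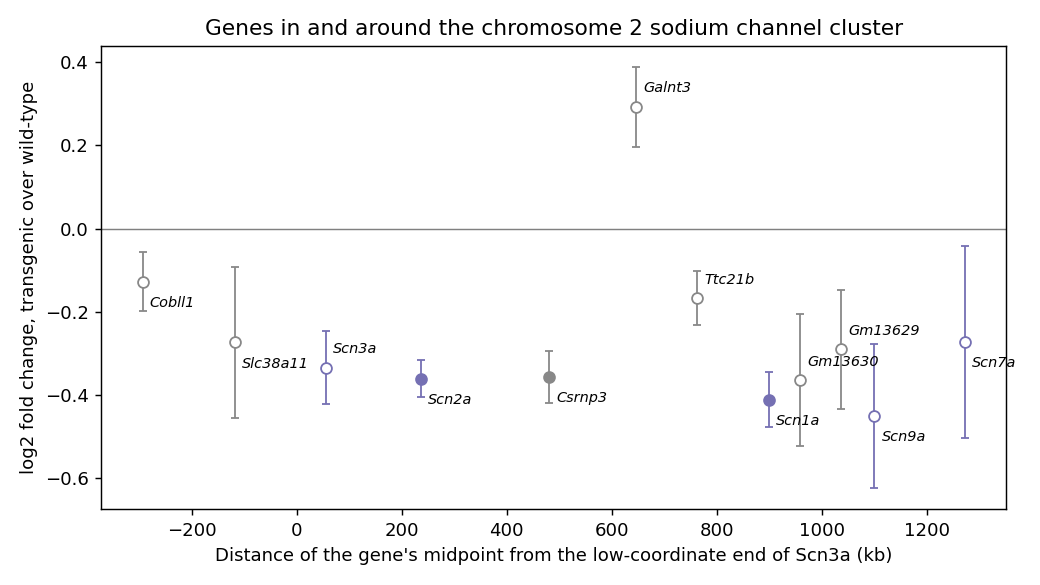
Log2 fold change (transgenic over wild-type, with 1 standard error) of the 12 tested genes in and around the sodium channel cluster on chromosome 2, by the distance of the gene's midpoint from the low-coordinate end of Scn3a in kb. Sodium channel genes are in purple and others in grey, filled where the adjusted p was under 0.05, and Galnt3 at 0.29 is the gene above 0.

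The genes with the pattern most like Scn2a over the 6 libraries, by Pearson's r of log2 CPM among 11184 genes with a mean log2 CPM above 3, were Frem1 and Dolk, both at 0.998, and Gm43843, also at 0.998. For Scn9a they were Cep350 at 0.994, Srcap at 0.993 and Crk at 0.992. With Scn2a 367 genes had an r above 0.95, and with Scn9a 138 genes did. These are descriptions over 6 libraries that share the difference between genotypes and the differences in depth given above.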

How the data were processed

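Hippocampal RNA of 3 wild-type and 3 transgenic females was sequenced. The authors filtered reads with Trimmomatic, aligned them to mm10 with STAR and counted fragments with featureCounts 1.5.0-p1 (read pairs, strand setting 2, primary alignments, mapping quality of at least 3, Ensembl 95). The deposited counts are whole numbers per gene that were not normalized. Genes were kept by edgeR's filterByExpr (minimum count 10), libraries were scaled by TMM, and the quasi-likelihood test of edgeR compared the genotypes over the 6 libraries, with no covariate and a threshold of 0.05 on the adjusted p. NOISeq, the study's test, was not used here. FPKM came from the counts, deposited lengths and library totals. GC content came from GENCODE M21 transcripts, for 54809 of the genes, and offsets from a loess curve (span 0.5). The labels do not say what mice of one number share. Whether the mice differ in litter or day is not given in the sources used here.

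The members, the lists (partners, other sodium channel genes and cell type markers) and the rule for named genes were chosen with earlier results of these data known. Named were all members, tested other family genes, partners and chromosome 2 neighbours that passed, the 3 genes most like Scn2a and Scn9a, and Orai1 and Thy1; other genes were named after their values were seen. Some genes covered by this rule, and sequences, are not reported here. The fits were tested on simulated data. R 4.3.3, edgeR 4.0.16, limma 3.58.1, DESeq2 1.42.0 and Python 3.11.15 were used.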

Additional observations from a re-analysis of the deposited data

How the results depend on the processing

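Scn1a and Scn2a kept a fold change below 0 under all 19 alternatives tried, and 2 or 3 of the 8 genes passed with other scalings, filters and tests (DESeq2, limma-voom). With GC offsets, or GC and length offsets, 0 passed, and with the replicate block and GC offsets, or the block and length offsets, 1 passed (Scn1a). With a mouse left out 0 to 2 passed. Over all genes, 2230 passed by DESeq2's Wald test, 412 with GC offsets, 778 with length offsets, 410 with both, and 77 to 1149 with a mouse left out. The median log2 fold change of the 8 genes was -0.218 with GC offsets, -0.214 with length offsets and -0.152 with both. Scn8a turned to 0.055 with length offsets, and Scn3b ran from -0.321 to 0.064 with a mouse left out. The cause of these differences was not tested.

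Mice of both genotypes carry the numbers 1 to 3. Deviations from the group mean of mice with one number correlated at 0.399, -0.357 and 0.388 across 11191 genes, so the numbers were not taken to pair them. With the replicate block 2 of the 8 genes and 738 of all genes passed, with the block and GC offsets 474 of all genes, with the block and length offsets 569. The median of the 8 genes was -0.22 and -0.216 in the last 2 fits, and Scn8a was at 0.05 with the block and length offsets. Wild-type mouse 3 correlated best with transgenic mouse 2, at 0.536. With 3 mice per genotype and 125 to 321 counts per library, counting error adds to the spread of Scn9a.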

Other observations

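Of 8 excitatory neuron genes 2 passed as higher in transgenic mice, Slc17a7, the vesicular glutamate transporter, with a log2 fold change of 0.26, and Neurod2, a neuronal transcription factor, with 0.32 (adjusted p of 0.0356 and 0.0239 by edgeR). Neither passed with GC offsets (adjusted p of 0.105 and 0.0602) or without wild-type mouse 2 (0.15 and 0.115). No gene of the list passed without wild-type mouse 1, transgenic mouse 2 or transgenic mouse 3 either. With the replicate number as a block Slc17a7 did not pass (adjusted p = 0.0675 by edgeR) and Neurod2 did (adjusted p = 0.0358). Relative to the excitatory neuron list in place of the pan-neuronal one, and again without GC offsets, Scn1a was lower by 0.48, Scn2a by 0.44 and Scn2b by 0.17 on the log2 scale. Of 7 genes of pyramidal cells 1 passed as lower, while 5 had a fold change above 0 and the median log2 fold change was 0.20. DESeq2 called 1 of these 7 as higher and 1 as lower. Of 7 endothelial genes 1 passed as higher, and 0 with GC offsets. None of the genes of the dentate granule cell, thalamus, oligodendrocyte, astrocyte and microglia lists passed edgeR's test, while 4 genes of these lists had an unadjusted p under 0.05, 3 of them in the thalamus list, and DESeq2 called 2 thalamus genes as lower. These 5 lists had median log2 fold changes of 0.01, -0.07, 0.10, -0.02 and 0.32. Dentate granule cell genes summed to 307 to 353 CPM and pyramidal cell genes to 441 to 490.2 CPM over the 6 libraries.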
